A study of Mus musculus with 4 samples.

Results

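This account covers the 200 array probes that were lowest in mouse embryonic stem cells relative to pooled reference RNA of 11 mouse cell lines. They were chosen from 42006 probes by the measured ratio itself. For each probe, log2 of the processed Cy3 signal (stem cell RNA) over the processed Cy5 signal (reference RNA) was averaged over the 4 arrays, 265 probes saturated on any array were set aside, and the 200 lowest of the remaining 41741 were kept. The low ratio is therefore a description of how the probes were chosen and not a finding. The choice did not use the difference between the sorted fractions directly. A large increase in either fraction still lifts a probe's mean ratio and can take it out of the 200. The difference is described in the ratio, in the Cy3 signal alone and in the reference channel alone.

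All 4 samples were male 129/Sv embryonic stem cells of the line ES[129.3:zscan4cEmgfp(7)], which carries the pZscan4-Emerald vector, so that both fractions hold the same transgene. In the series' design text the parent cells are called MC1, and blasticidin-resistant colonies were picked after transfection. Cells were sorted by Emerald fluorescence into an Emerald-positive fraction (2 samples) and an Emerald-negative fraction (2 samples), with no other treatment named. Stem cell RNA carried the Cy3 dye and was hybridised against Universal Mouse Reference RNA labelled with Cy5, in 1 dye orientation throughout. The reference mixes equal parts of RNA from lines of embryonic, fibroblast, kidney, liver, macrophage, lymphocyte, mammary, muscle, skin and testis origin. The sample descriptions give replicate 1 of both fractions the same date and replicate 2 of both another, called day 1 and day 2 here. Whether the days stand for separate cultures is not given in the sources used here, so the p-values measure only the spread between these samples. As bulk RNA, a lower signal from fewer cells cannot be told apart from a lower signal per cell.

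Zscan4 is a gene family of zinc finger proteins expressed in the cleavage-stage embryo. In cultured embryonic stem cells it is on in a small and changing part of the cells at any time. Emerald is a green fluorescent protein, and here it reports cells in which the Zscan4 promoter fragment is active. A universal reference pool mixes RNA of differentiated and transformed lines, so transcripts of fibroblasts, blood cells or epithelia that pluripotent cells hardly use can lie at the low end of a stem-cell-over-pool ratio. The comparison between fractions asks whether any transcript of that low end is higher where the reporter is on.

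The array carries probes of 60 bases, and the deposited files name no gene for any of them (0 of 42006). None of the 200 lay within the RefSeq promoter windows or microRNA hairpins supplied (GRCm38.p6), on either strand. In the gene table only the probe identifiers were looked up, not the sequences, and 0 probes matched an entry. Probes are therefore given by identifier and sequence, and their position in the genome is not given here. Shown first are the 4 members with the largest increase in the Emerald-positive fraction, the member with the largest decrease, and the 2 members lowest against the pool. Sequences run 5′ to 3′, and capitals mark AATAAA, the main signal for cleavage and polyadenylation of messenger RNA, or its variant ATTAAA.
Z00022677-1: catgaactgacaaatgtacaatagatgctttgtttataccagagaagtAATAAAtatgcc
Z00051485-1: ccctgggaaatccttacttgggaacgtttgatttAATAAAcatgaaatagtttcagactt
Z00031126-1: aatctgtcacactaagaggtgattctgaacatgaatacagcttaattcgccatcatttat
Z00063688-1: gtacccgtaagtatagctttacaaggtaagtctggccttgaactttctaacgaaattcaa
Z00010216-1: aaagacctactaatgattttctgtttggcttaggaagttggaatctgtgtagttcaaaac
Z00030539-1: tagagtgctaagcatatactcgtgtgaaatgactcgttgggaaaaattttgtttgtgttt
Z00068595-1: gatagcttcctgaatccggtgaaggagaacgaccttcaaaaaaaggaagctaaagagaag

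Z00022677-1 holds AATAAA at base 49 and Z00051485-1 holds it at base 35, counted from 1 at the 5′ end, while the other probes in that list hold neither hexamer on this strand. Among the 200 members, 27 (13.5%) hold AATAAA, against 6.75% of all probes. The reverse complement of AATAAA is in 5.5% of the members and 3.42% of all probes. ATTAAA is in 4.5% of the members and 3.2% of all probes, and its reverse complement in 2.5% and 2.31%. The pentamer ATTTA, the core of AU-rich elements in 3′ ends of unstable messages, is in 12.0% of the members and 7.27% of all probes, and its reverse complement in 12.5% and 8.2%. Overlapping motifs were counted under each name. The GC content averaged 40.5% ± 6.19 (SD, n = 200 probes) in the members, from 23.3 to 60.0%, and 44.0% ± 8.45 over all 42006 probes. The part of this difference in the motif shares was not tested. A match is a description of the letters and not of a used site. The 27 members with AATAAA had a median difference between fractions of -0.06 in the log2 ratio. Of the 10 largest increases named here 2 hold the hexamer, and so does Z00063064-1, among the 5 largest decreases.

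The member lowest against the pool was Z00030539-1, with a mean log2 ratio of -6.14, a signal 70.7-fold higher in the pool channel. The median member stood at -3.55 (11.7-fold) and the last at -2.96 (7.76-fold). Under a log2 ratio of -4 lay 44 members, and under -5 lay 14. Per array, the median member was at -3.39 and -3.71 in Emerald-positive replicates 1 and 2 and at -3.48 and -3.58 in Emerald-negative replicates 1 and 2, while the median over all probes was between -0.02 and -0.01 on each. Over the 4 arrays the SD of a member's ratio had a median of 0.285, and the widest was 0.833 for Z00051485-1, one of the members that was higher in the Emerald-positive fraction. The order of ranking has no gap at its end. Z00053113-1 at -2.96002 and Z00016161-1 at -2.95586 are the last 2 inside, and Z00008512-1 at -2.94826 and Z00040764-1 at -2.94611 are the first 2 outside.

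**Figure D1:**
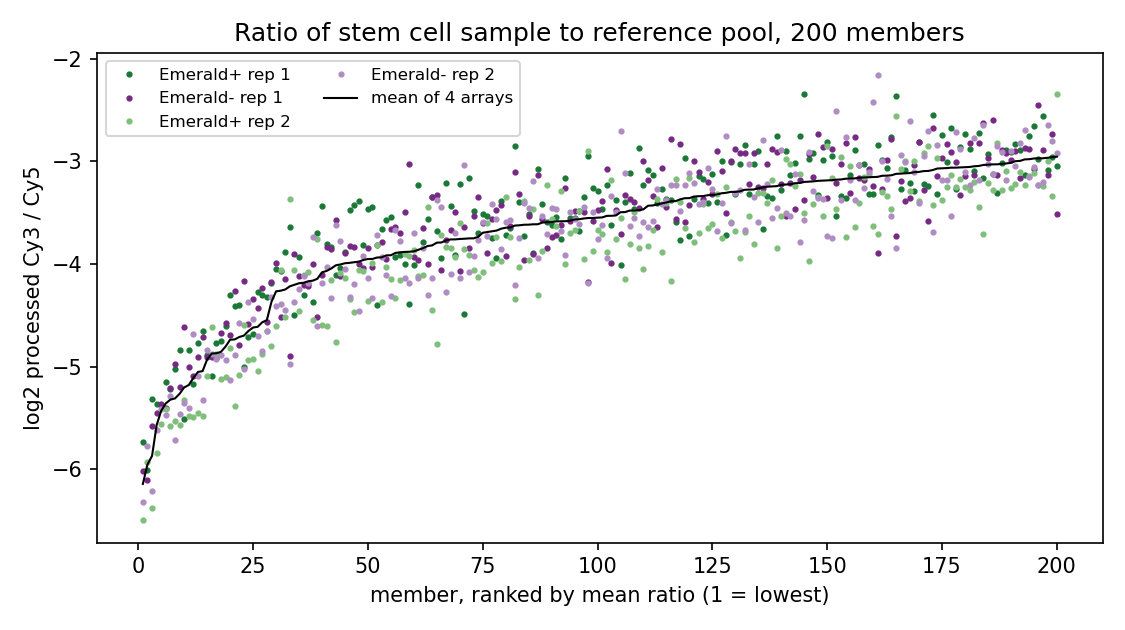
Log2 of processed Cy3 over processed Cy5 for the 200 members, ranked on the horizontal axis from the lowest mean ratio; each point is 1 array and the line is the mean of the 4. The mean runs from -6.14 to -2.96, and points of both fractions lie on both sides of the line.

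Low against the pool did not mean dark on the array. Net Cy3 signals (mean signal minus local background, in scanner units) of the members ran from 32.14 to 2766 in Emerald-positive replicate 1, with a median of 157.8, and from 23.15 to 2250 in replicate 2, with a median of 92.87. In the Emerald-negative fraction they ran from 29.85 to 2391 (median 118.2) and from 30.6 to 2360 (median 107.5). The 314 negative-control spots set a level, their mean plus 2.6 SD, of 61.36, 33.68, 65.03 and 58.13 on the 4 arrays in the same order. Above it were 169, 185, 153 and 145 members, or 84.5%, 92.5%, 76.5% and 72.5%, against 89.4%, 93.6%, 86.5% and 79.4% of all probes. On all 4 arrays 136 members were above it, on 3 arrays 17, on 2 arrays 23, on 1 array 11, and on none 13. The label of probes low in stem cells thus holds relative to the pool, and for most members a Cy3 signal above the control spots was still measured. The net Cy5 signals had medians of 3979, 3447, 3878 and 3263, and no member's Cy5 fell under 463.6.

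**Figure D2:**
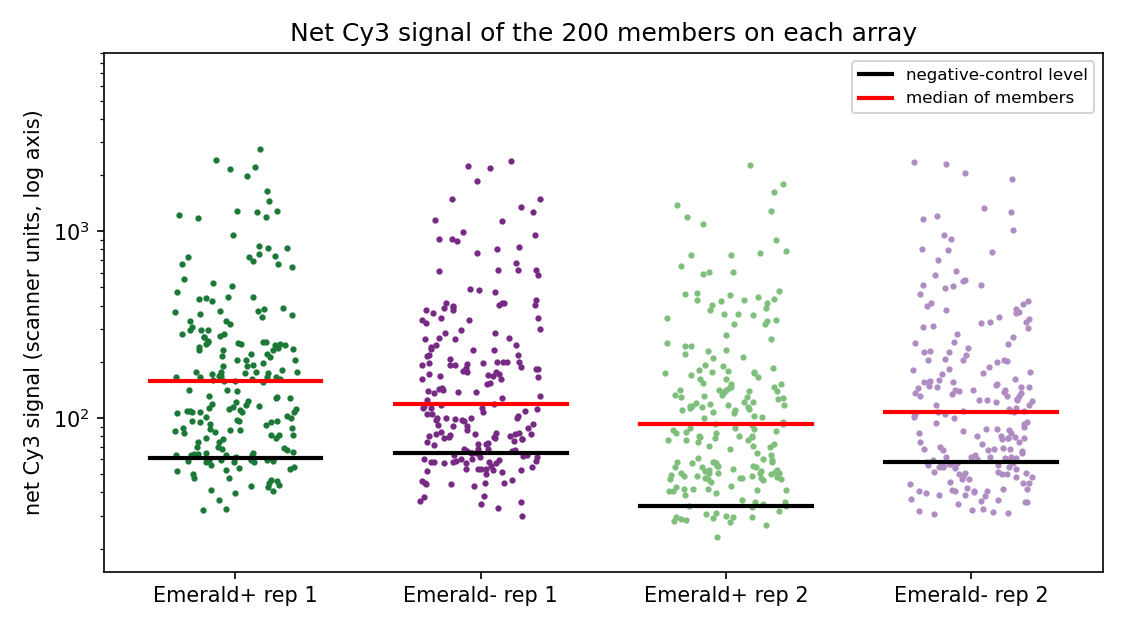
Net Cy3 signal (log axis, scanner units) of the 200 members on each array, 1 point a member with random sideways scatter; the red line is the members' median and the black line the negative-control level. The medians of 92.87 to 157.8 lie above the levels of 33.68 to 65.03 on every array.

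The 10 members lowest against the pool showed no called difference between fractions. Z00030539-1 had net Cy3 signals of 97.35 and 47.26 in the positive fraction and 68.25 and 54.37 in the negative one, and the groups overlapped. Z00068595-1, at a mean ratio of -5.95, had 100.6 and 95.57 against 86.23 and 105.9, again overlapping. Z00010007-1, at -5.87, followed the day and not the fraction, with 308.5 and 121.3 against 247.1 and 137.6. The other seven, Z00036124-1, Z00045372-1, Z00025893-1, Z00031219-1, Z00053948-1, Z00035752-1 and Z00016166-1, had mean ratios from -5.57 to -5.20. Over all 10 the difference in log2 ratio lay between -0.31 (Z00016166-1) and 0.15 (Z00025893-1), with adjusted p of 0.953 or more (limma, Benjamini-Hochberg over all probes).

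Against the Emerald-negative fraction, 1 of the 200 members rose in the log ratio and none fell. The member that rose was Z00022677-1, and 3 further members, Z00051485-1, Z00031126-1 and Z00063688-1, were higher by 1.15, 0.98 and 0.77, each on both days, without passing the test. In the Cy3 signal alone no member passed it, although these 4 members were higher there too, by 0.93 to 1.50 on the log2 scale. The log ratio here is log2 of sample over reference after background correction and loess normalization, tested with limma across all 42006 probes at an adjusted p under 0.05.

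The 1 member called higher is 0.5% of the 200, beside 0.219% of all probes, and the count of 0 called lower stands beside 0.00952%. At an unadjusted p under 0.05, 11 members (5.5%) were higher and 10 (5.0%) lower, beside 3.74% and 3.49% of all probes. With the day as a block in the same fit, 4 members (2.0%) were called higher and 0 lower, beside 0.736% and 0.117% of all probes. Those 4 are the members just named, with adjusted p from 0.0249 to 0.0428. Same-numbered samples deviated together from their group means (r = 0.475 across probes in the ratio), and the shared date in the descriptions pairs them. Without any 1 of the 4 arrays the unblocked call was lost, at adjusted p from 0.15 to 0.314 for Z00022677-1.

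In the ratio the median member differed by -0.02 (Emerald-positive minus Emerald-negative), with 85 members above 0 and 115 below. Over all probes the median was -0.01. The middle 90% of members spanned -0.44 to 0.43, against -0.29 to 0.27 over all probes, and the median standard error was 0.146 in the members and 0.0959 over all. At least 2-fold higher on both days in the ratio were 2 members (1.0%), beside 0.49% of the 41606 probes with all values, and 0 were 2-fold lower on both days, beside 0.0216%. Across members the day 1 and day 2 differences correlated at r = 0.442 (rho = 0.326), against r = 0.65 (rho = 0.273) over all probes. These are correlations across probes that share arrays and dyes and are given as description only.

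In the Cy3 signal alone, scaled to each array's 75th percentile, 0 members were called higher, beside 0.176% of all probes (74), and 0 lower, beside 0.0%. At an unadjusted p under 0.05, 6 members (3.0%) were higher and 1 (0.5%) was lower, beside 1.48% and 0.359%. At least 2-fold higher on both days in Cy3 were 3 members (1.5%), beside 0.682% of the 41620 probes with all values, and 0 were 2-fold lower, beside 0.0384%. The spread of this measure was wider than that of the ratio, with a median standard error of 0.333 in the members. Over all probes the smallest Cy3 difference called was 2.15 on the log2 scale, larger than any member's, whose highest was 1.50. In the ratio the smallest difference called over all probes was 0.953. The median Cy3 difference of the members was -0.02, with 90 above 0 and 110 below, and over all probes it was -0.03.

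Higher on both days in both measures were 39 members (19.5%), beside 12.6% of all probes, and lower on both days in both were 56 (28.0%), beside 18.5%. The remaining 105 changed sign between days or measures. Of the 200, 2 members, Z00022677-1 and Z00051485-1, were at least 2-fold higher on both days in the ratio and in Cy3. In the reference channel, where every array holds the same pool, 0 members were called higher or lower, beside 0.00714% and 0.0% of all probes (limma). At an unadjusted p under 0.05, 0 were higher and 0 lower in Cy5, beside 0.0881% and 0.0738%. The members' Cy5 differences between fractions ran from -0.14 to 0.32, with a median of 0.03. By day the median Cy5 difference was -0.06 and 0.12, of opposite sign on the 2 days.

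**Figure D3:**
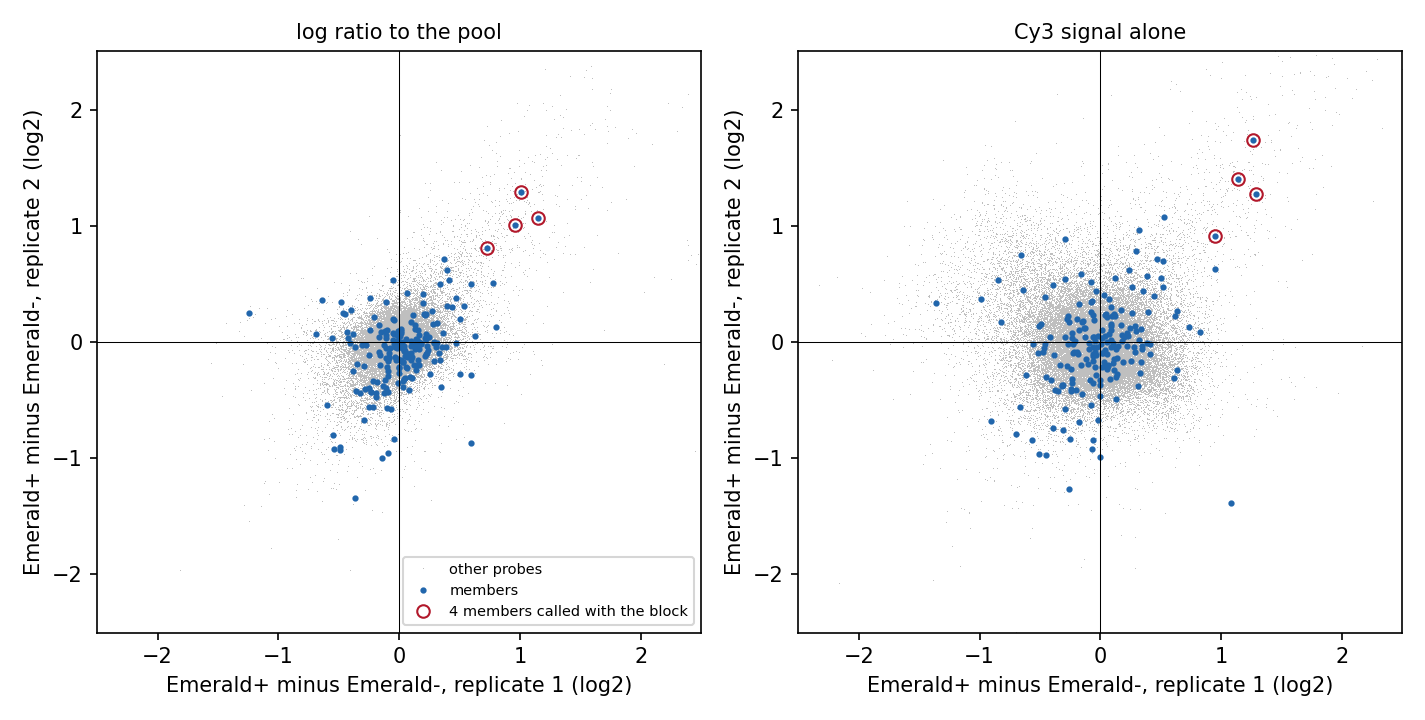
Emerald-positive minus Emerald-negative on day 1 (horizontal) and day 2 (vertical), log2, for the ratio (left) and Cy3 alone (right); grey points are other probes, blue the members, red circles the 4 members called with the day as a block. The 4 lie in the upper right in both panels; axes stop at 2.5, which leaves 77 and 92 other probes outside and 0 members.

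Z00022677-1, with a mean ratio of -3.12, gave net Cy3 signals of 251.0 and 177.7 in Emerald-positive replicates 1 and 2 and of 92.97 and 82.91 in Emerald-negative replicates 1 and 2. Both Emerald-positive values lie above both Emerald-negative ones, and all 4 are above the negative-control level. Its net Cy5 signals were 3061, 2674, 2936 and 2786 in the same order. The log2 ratio was 1.11 higher in the Emerald-positive fraction (SE 0.0886, n = 2 and 2, limma adjusted p = 0.0456; 0.0249 with the day as a block), by 1.15 on day 1 and 1.07 on day 2. In Cy3 alone it was 1.28 higher (SE 0.336, 95% interval 0.522 to 2.04), by 1.29 and 1.27 on the 2 days, with a limma adjusted p of 0.62. In the authors' deposited table the difference was 1.32 on the log2 scale, with a limma adjusted p of 0.0857.

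Z00051485-1, with a mean ratio of -4.22, gave net Cy3 of 220.2 and 188.8 against 82.38 and 63.75, in the same order. The groups do not overlap, and all 4 values exceed the control level. The lowest, 63.75 in Emerald-negative replicate 2, is only a little above its level of 58.13. Net Cy5 was 6604, 5028, 5975 and 4755. Its ratio difference was the highest of the 200, at 1.15 (SE 0.124, days 1.01 and 1.29), with a limma adjusted p of 0.104 without the block and 0.0384 with it. The Cy3 difference was 1.50 (SE 0.351, 95% interval 0.711 to 2.29, days 1.26 and 1.74), with a limma adjusted p of 0.429. Without Emerald-positive replicate 1 it became 1.88, with an adjusted p of 0.0178 (limma), the 1 setting in which a member was called in Cy3.

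Z00031126-1, with a mean ratio of -3.55, gave 162.1 and 129.1 against 66.92 and 55.63. Here too the groups are apart, but the Emerald-negative values sit at the control level, 1 just above it and 1 just below. Net Cy5 was 2929, 2421, 2825 and 2295. The ratio difference was 0.98 (SE 0.0854, days 0.95 and 1.00), with a limma adjusted p of 0.0593, and 0.0289 with the block. The Cy3 difference was 1.27 (SE 0.343, 95% interval 0.495 to 2.04), with a limma adjusted p of 0.685. In this member and not in Z00022677-1 the call was made with a normexp offset of 10 (limma adjusted p = 0.0397) and with the software's processed signals (0.0469). Which of the 2 passes the threshold depends on the processing, and with the block both do.

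Z00063688-1, with a mean ratio of -4.15, was measured far above the control level in both fractions, at 2164 and 1375 against 958 and 807.3. The groups do not overlap in Cy3. Net Cy5 was 58050, 43380, 51350 and 43460. Its ratio difference was 0.77 (SE 0.0809, days 0.73 and 0.81), with a limma adjusted p of 0.099, and 0.0428 with the block. In Cy3 it was 0.93 (SE 0.32, 95% interval 0.21 to 1.65), with a limma adjusted p of 1.0. With no background correction the ratio differences shrank to 0.388 for Z00022677-1, 0.311 for Z00051485-1, 0.253 for Z00031126-1 and 0.61 for Z00063688-1, of which none passed the test (limma). For all 4 members the Cy5 differences by day lay between -0.09 and 0.13, and none of the 4 shares 24 or more bases with another probe on the same strand. On the opposite strand Z00063688-1 matched Z00032970-1 (88.23% over 34 bases) and Z00036591-1 (84% over 25 bases). The ratio differences of those 2 probes were 0.10 and 0.44, and neither was called.

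**Figure D4:**
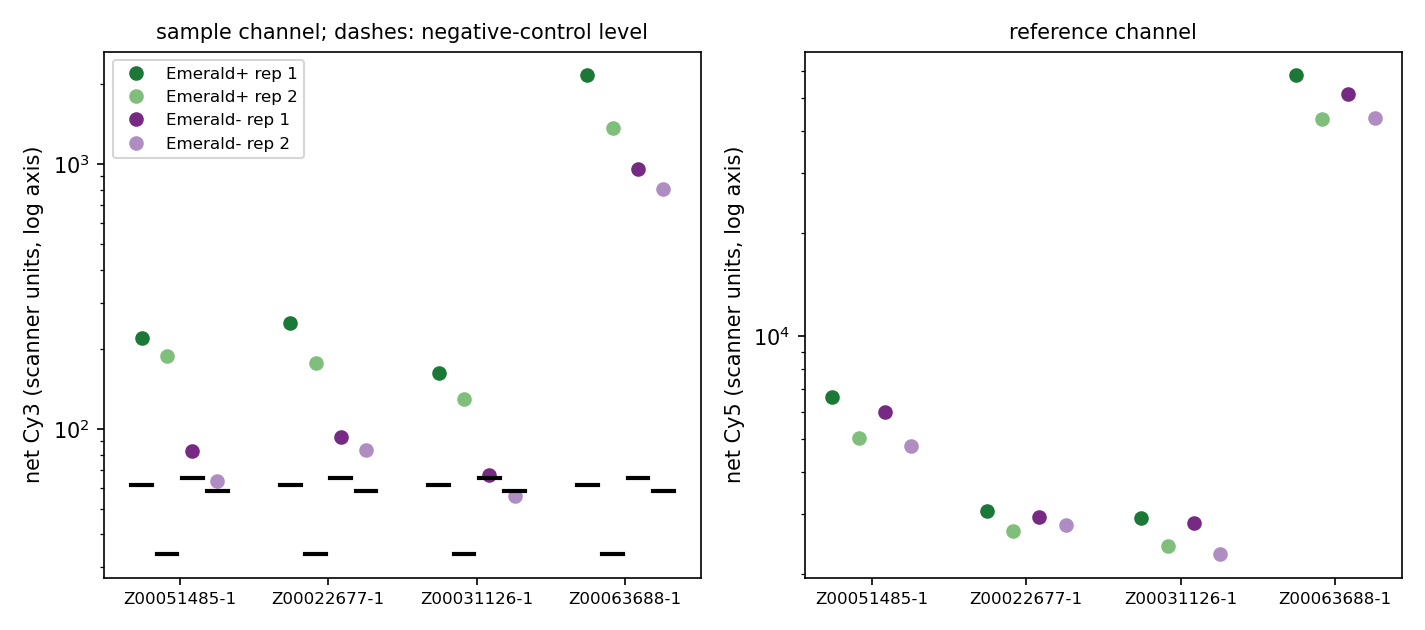
Net Cy3 (left) and net Cy5 (right) in scanner units on log axes for the 4 members called with the day as a block, 1 point an array; black dashes are the negative-control level of that array. In Cy3 both green points lie above both purple ones for each probe, and in Cy5 the fractions overlap.

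The next 6 increases, each with the same sign on both days in both measures, did not pass the test with or without the block. Z00023365-1 gave net Cy3 signals of 644.6 and 355.6 against 294.5 and 253.9, a ratio difference of 0.64 (SE 0.131). Z00025348-1 gave 551.7 and 476.5 against 342.4 and 323.3, a difference of 0.55 (SE 0.077). Z00007727-1 gave 192.9 and 161.0 against 137.5 and 92.35, a difference of 0.55. In these 3 probes the net Cy3 values of the fractions were apart. The scaled Cy3 values of Z00025348-1 overlap, at -0.20 and 0.55 against -0.72 and -0.15. Z00035617-1 gave 107.7 and 83.07 against 67.48 and 45.0, net signals that are also apart, a difference of 0.51. Its value of 45.0 is below the control level of 58.13 in Emerald-negative replicate 2. With no background correction its ratio difference was 0.0726. Z00016161-1, the last member by rank, gave 297.5 and 401.9 against 192.3 and 270.9, a difference of 0.47 (SE 0.288). Its net signals are apart, while its scaled Cy3 values (-1.09 and 0.32 against -1.55 and -0.39) and its ratios overlap. Z00042046-1 gave 121.5 and 55.38 against 61.82 and 57.81, where the net signals overlap but the scaled Cy3 values do not. Its ratio difference of 0.47 came from 0.80 on day 1 and 0.13 on day 2. Both Emerald-negative values of Z00042046-1 are below the control level. Its Cy3 increase of 1.37-fold is the value as measured, rests on these dim signals and is not a bound. Limma adjusted p-values of these 6 ran from 0.176 to 0.949 in the ratio.

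No decrease was called. The largest was Z00010216-1, with net Cy3 of 1290 and 464.3 in Emerald-positive cells against 1351 and 1261 in Emerald-negative cells. The low value is that of Emerald-positive replicate 2, and the ratio difference of -0.86 (SE 0.353, limma adjusted p = 0.744) was made of -0.37 on day 1 and -1.34 on day 2. Z00064681-1 gave 671.2 and 387.7 against 886.5 and 778.7, a ratio difference of -0.73 (SE 0.13, limma adjusted p = 0.267). Z00063064-1 gave 190.0 and 109.7 against 240.5 and 237.4, a difference of -0.71. Z00022802-1 gave 247.4 and 139.7 against 300.6 and 302.2, a difference of -0.69. In these 3 probes the groups are apart, and the lowest net signal was again Emerald-positive replicate 2. In scaled Cy3 Emerald-positive replicate 1 was lowest (0.07, -1.74 and -1.36), against 0.25, -1.55 and -1.20 in replicate 2. In the ratio replicate 2 was lowest. Z00005365-1 gave 295.5 and 146.7 against 425.9 and 282.8, a ratio difference of -0.67 with a limma adjusted p of 0.719. Its net signals overlap, while scaled Cy3 (-1.10 and -1.13 against -0.40 and -0.33) and the ratio do not. Emerald-positive replicate 2 had the lowest members' median net Cy3 of the 4 arrays, 92.87, and its part in these decreases was not tested.

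**Figure D5:**
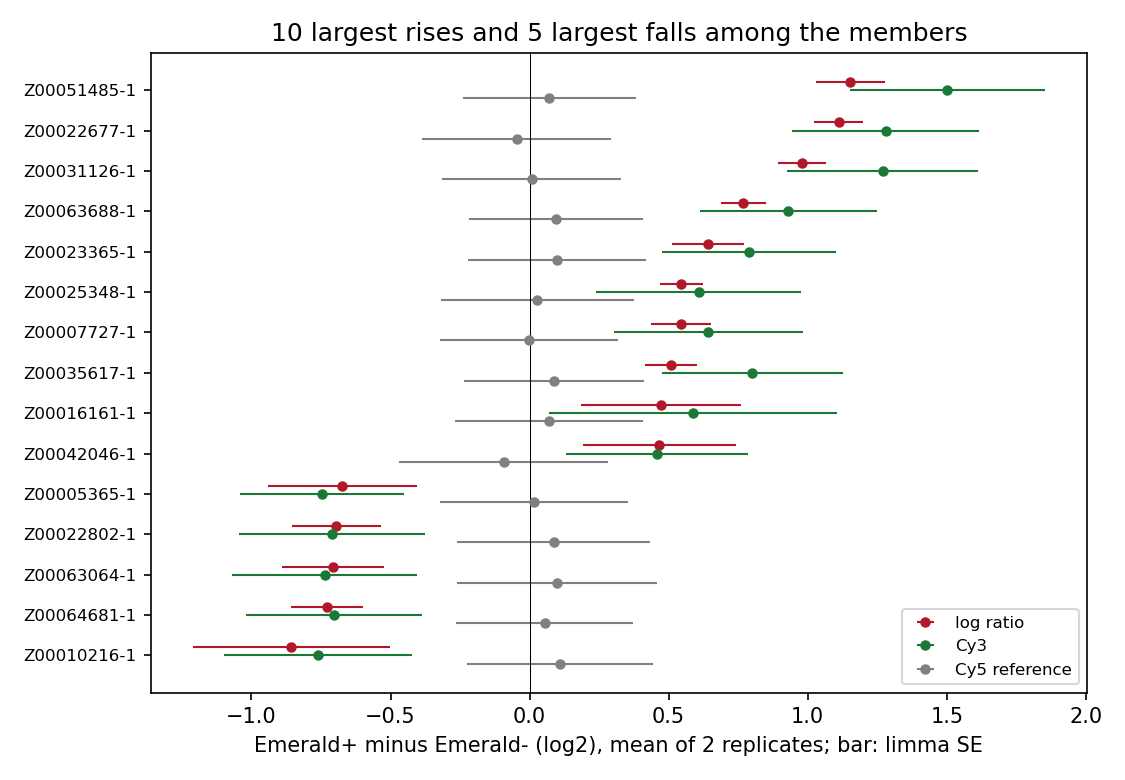
Emerald-positive minus Emerald-negative on the log2 scale for the 10 largest increases and 5 largest decreases among members chosen for having 1 sign on both days in the ratio and in Cy3, for the ratio, Cy3 and the Cy5 reference; points are means over 2 samples a fraction and bars the limma standard error. Ratio and Cy3 lie on the same side of 0 because the probes were chosen so. The Cy5 differences lie near 0, and Cy5 entered the choice too, as part of the ratio.

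Some members share sequence with another member, and members that read the same stretch are not separate measurements. Links were drawn between probes that share at least 24 bases at 80% identity or more on the same strand. By this rule 18 members fell into 8 groups, 2 of 3 probes and 6 of 2, and 34 members were linked to a probe outside the 200. A link alone shows similar letters and not a shared stretch. Links within the groups had 100% identity, apart from a trio (90.91 to 95.92%) and a pair (96.67%). Links to outside probes varied more. Z00022541-1 matched Z00061716-1 at 100% over 55 bases (mean log2 ratios -3.24 and -2.72). Z00015988-1 matched Z00047453-1 at 81.48% over 27 bases (-3.96 and 1.325). The linked share of all probes is not given here. The first trio lies near the bottom of the ranking, and capitals mark the bases each shares with the next, 46 between Z00045372-1 and Z00031219-1 and 28 between Z00031219-1 and Z00073017-1, so that the 3 tile one stretch.
Z00045372-1: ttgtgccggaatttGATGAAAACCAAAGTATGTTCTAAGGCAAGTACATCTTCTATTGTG
Z00031219-1: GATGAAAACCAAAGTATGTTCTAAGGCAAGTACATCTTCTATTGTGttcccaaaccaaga
Z00073017-1: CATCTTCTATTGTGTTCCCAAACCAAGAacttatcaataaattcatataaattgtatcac

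In Z00031219-1 the capitals show only the overlap with Z00045372-1. The trio's mean log2 ratios to the pool were -5.43, -5.32 and -5.18. Its differences between fractions in the ratio were -0.03, -0.11 and 0.06, all within their errors. A pair of members of nearly the same sequence, shown because 2 bases part them, differ at T37C and T38C (from Z00035752-1 to Z00016166-1, counted from 1 at the 5′ end; capitals mark those bases).
Z00035752-1: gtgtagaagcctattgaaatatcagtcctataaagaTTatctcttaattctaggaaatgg
Z00016166-1: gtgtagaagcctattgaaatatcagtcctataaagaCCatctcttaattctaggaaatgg

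Their mean ratios were -5.27 and -5.20, and their differences between fractions were 0.14 and -0.31. Z00016166-1 was above the negative-control level on 1 array of each fraction, and its difference came from -0.69 on day 1 and 0.07 on day 2, and that of Z00035752-1 from 0.29 and -0.004446. A second trio had positive differences on both days in both measures, and no probe of it passed the test. Capitals mark the run of bases shared with Z00032919-1 (24 for Z00060985-1, and 22 for Z00050391-1), and in Z00032919-1 itself the run shared with Z00060985-1.
Z00060985-1: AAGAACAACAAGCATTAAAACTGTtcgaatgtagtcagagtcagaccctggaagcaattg
Z00032919-1: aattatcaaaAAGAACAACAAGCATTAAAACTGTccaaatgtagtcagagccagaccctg
Z00050391-1: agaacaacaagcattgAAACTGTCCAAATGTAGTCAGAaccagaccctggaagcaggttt

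Z00060985-1 gave net Cy3 of 91.6 and 52.8 in Emerald-positive cells against 58.3 and 40.5 in Emerald-negative cells, a ratio difference of 0.37. Z00032919-1 gave 114.2 and 60.8 against 66.4 and 56.2, a difference of 0.35. Z00050391-1 gave 95.3 and 47.8 against 63.2 and 41.0, a difference of 0.22. In all 3 the net Cy3 values of the fractions overlap, since Emerald-positive replicate 2 was below Emerald-negative replicate 1. Both Emerald-negative values of Z00060985-1 and of Z00050391-1 are below the negative-control level. Their Cy3 increases of 1.44-fold and 1.34-fold are values as measured and not bounds. These increases and the ratio differences rest on the same dim signals. Z00032919-1, with 1 of its 2 Emerald-negative values above that level, had a scaled Cy3 difference of 0.45. The limma adjusted p-values in the ratio were 0.793, 0.868 and 0.69. Outside the 200, Z00058935-1 and Z00057507-1 each share 34 bases with Z00032919-1, and their ratios as measured differed by 0.02 and -0.14. Z00058935-1 was below the negative-control level on every array, and Z00057507-1 was above it on Emerald-positive replicate 2 alone (37.91 against 33.68), so both differences rest on signals near or under the control spots.

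In 3 of the remaining pairs both probes were above the negative-control level on all 4 arrays. Z00057509-1 and Z00033541-1, which share 57 bases, differed between fractions by 0.43 and 0.14. Z00005762-1 and Z00059537-1, with 53 shared bases, differed by -0.21 and -0.52. By day these were -0.37 and -0.04 for Z00005762-1, and -0.09 and -0.96 for Z00059537-1. Z00035739-1 and Z00063398-1 share 53 bases and differed by 0.12 and 0.00183. In the other two pairs 1 probe was dim. Z00026201-1 differed by -0.13, while Z00063425-1, with 40 bases in common, was below the negative-control level on all 4 arrays. Z00023754-1 differed by 0.03, while Z00055472-1, with 24 bases in common, was above that level on 1 array.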

How the data were processed

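The 4 arrays were analysed, 2 per fraction, with groups and replicate numbers from the sample titles. The deposited scanner tables hold spot intensity for both channels and, as a log10 value, the Cy5 over Cy3 ratio. This is per the file headers, which name Agilent Feature Extraction 7.5.1 (the design text names another version). The processed signals had been background-subtracted and dye-normalized by the authors' scanner software, as those headers record. A further table of log10 values was deposited by the authors, with steps and centring not given in the sources used here. Replicates 1 and 2 had column medians of 2.957 and 2.95 in the positive and of 2.955 and 2.948 in the negative fraction, and it was used after conversion to log2 as an alternative.

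Mean signals were corrected with normexp (offset 50) against local background and normalized within arrays by loess, with control and outlier spots at weight 0, and spots of a probe averaged. Ratios are log2 of sample over reference. Cy3 alone is log2 of the processed signal minus the array's 75th percentile. The fractions were tested with limma 3.58.1 (lmFit, eBayes; R 4.3.3), and p-values were adjusted by Benjamini-Hochberg across the whole array, after the script had been tested on simulated data. With 2 arrays per group, the number of arrays limits the precision. Replicate numbers pair the samples, since the descriptions give same-numbered samples 1 date, and their deviations correlated at 0.475 in the ratio and 0.528 in Cy3. Links between probes came from blastn 2.17.0.

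Members and lists were chosen with earlier results of these data known. Named probes are the 10 lowest ratios, the members past the threshold, the 10 largest increases and 5 largest decreases of 1 sign on both days in both measures, and the 2 probes on each side of rank 200. Linked groups were chosen after their values were seen. Gene and marker lists were not analysed here because the files name no genes. The software's mark for signals well above background was set for every probe, negative controls included, so the negative-control level was used instead.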

Additional observations from a re-analysis of the deposited data

How the results depend on the processing

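The count of members called higher in the ratio, 1 in the main analysis, was 0 with no background correction, with median centring, with the authors' value table, with an intensity trend in the prior variance, with outlier spots kept (chosen after seeing the data) and with 100 members. It was 4 with the replicate block, 2 with 400 members, and 0 to 0 when each array was left out in turn. The added probe among 400 members was Z00004269-1, with a mean ratio of -2.41, a ratio difference of 1.82 (limma adjusted p = 0.019) and a Cy3 difference of 1.97 (adjusted p = 0.158). Keeping saturated probes or ranking by the loess ratio left 190 and 176 of the 200 members and the ratio count at 1. Scale normalization and the negative-control filter kept Z00022677-1 (adjusted p of 0.0271 and 0.0495, limma). The Cy3 count of 0 became 1 without Emerald-positive replicate 1 and was 0 to 1 over the 4 arrays left out. With 100 members the set holds 100 by construction.

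The members' median ratio difference of -0.0188 was -0.062 with scale normalization, -0.0615 with the authors' value table, and -0.101 to 0.0541 with single arrays left out. The median Cy3 difference of -0.0232 was -0.0128 with median scaling, 0.0103 with normexp and quantile normalization, -0.0188 with no background correction, 0.00731 with the negative-control filter, -0.0248 with outlier spots kept, and -0.224 to 0.188 with single arrays left out. The cause of these shifts was not tested. No difference between fractions that was called changed sign. The difference of Z00022677-1 in the ratio ranged from 0.388 (no background correction) to 1.44 over 15 settings and passed the threshold in 4 of them. The block changed no Cy3 call. Signals near the negative-control level limit the dimmest members, of which 13 were above it on no array.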
